A study of Mus musculus with 3 samples.

Results

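The 9 genes described here encode interferon gamma inducible GTPases, and were taken by name from the 32285 genes of the deposited matrices. They are Iigp1, Irgm1, Irgm2, Igtp and Tgtp2 of the immunity-related GTPase (IRG) family and Gbp2, Gbp3, Gbp4 and Gbp7 of the guanylate-binding protein (GBP) family. The group was chosen because Iigp1 had been seen to be much lower in B cells of the angiotensin II (Ang II) library than in those of the control library. The genes were thus selected on the Iigp1 level in B cells of these libraries, and that ratio is given below as a description.

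Interferon gamma, made mainly by T and NK cells, signals through a receptor with the kinases Jak1 and Jak2, and induced factors such as Irf1 help to switch on IRG and GBP genes in many cell types. IRG and GBP proteins gather on the vacuoles of intracellular parasites and bacteria and help to break them. Iigp1 and Tgtp2 are effector IRGs that coat the vacuole, while Irgm1, Irgm2 and Igtp are regulators that hold the effectors inactive on the cell's own membranes. Loading onto the vacuole also needs the conjugation machinery of the ATG8 family, which is shared with autophagy.

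Single-cell RNA of spleen was measured with a droplet method that counts the 5′ ends of transcripts by unique molecular identifiers (UMIs), after T cells had been depleted with CD3 microbeads. The control library joined male sham and female C57Bl/6 mice. The Ang II library joined C57Bl/6 mice given Ang II, with or without 2-hydroxybenzylamine (2HOBA), a scavenger of isolevuglandins. The third library joined B6.SLE123 mice, which carry lupus susceptibility loci on the C57Bl/6 background, with and without 2HOBA. Mice were 12 to 14 weeks old, sham or Ang II minipumps ran for 2 weeks from 10 weeks of age at a labelled Ang II dose of 490 ug/kg/min, and 2HOBA or placebo was given to B6.SLE123 mice for 6 weeks from 7 weeks of age. Cells of 3 mice per condition were pooled, and antibody hashtags C0301 to C0306 were read in each library. The labels do not say which hashtag marks which condition or mouse, so each hashtag is given on its own and none is assigned to a group. Each group is 1 library, so no test between groups was possible, and every interval below covers counting error only.

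Among all deposited barcodes, before filters, libraries shared 415 to 496 in pairs. After filters, 15418 control, 13488 Ang II and 16229 B6.SLE123 cells carried exactly 1 hashtag. Marker genes placed 12560, 10774 and 12057 of these cells among B cells, with 26823429, 34568985 and 29931307 UMIs. Levels are given as CPM, the UMIs of a gene per 1000000 UMIs of the same cells. In control B cells, Xist, a transcript of the inactive X chromosome, was at 523 to 557 CPM in hashtags C0304, C0305 and C0306 and at 0.976 to 2.07 CPM in the other 3. In Ang II B cells it was at 0 in every hashtag, and in B6.SLE123 B cells it was at 416 to 505 CPM. The control library thus held hashtags of both kinds and the others did not, so neither contrast is matched for Xist. For B cells, values against the control hashtags closest in Xist level are therefore given beside the results, a choice made after the data were seen. Ratios in the other cell classes were not matched for Xist.

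Promoter sequences are shown because interferon gamma acts on these genes through 2 short promoter elements. The RefSeq promoter table (GRCm38.p6) held entries for 7 of the 9 genes, and the 250 bases before each start were searched on both strands for the gamma-activated site GAS, TTCNNNGAA, and for the interferon-stimulated response element ISRE, taken as GAAA and a second GAAA with any 2 bases between them. Of 32851 promoter windows, 7.02% held a GAS match, 2.98% an ISRE match and 0.332% both. All 7 genes had an ISRE match at some start (Gbp3 at 1 of 2), and Irgm2, Igtp, Tgtp2 and Gbp7 had both motifs. Matches of the same motif may overlap each other, as in Irgm1 and Gbp3. The windows of the 4 genes with both motifs read as follows, 5′ to 3′ on the gene's strand and with the matches in capitals.
Igtp, chr11:58199306-58199555, plus strand: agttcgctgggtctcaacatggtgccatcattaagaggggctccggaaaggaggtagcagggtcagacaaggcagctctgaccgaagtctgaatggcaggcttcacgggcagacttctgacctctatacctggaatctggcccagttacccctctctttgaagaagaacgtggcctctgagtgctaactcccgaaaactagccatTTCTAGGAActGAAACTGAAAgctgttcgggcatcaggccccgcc
Irgm2, chr11:58214727-58214976, plus strand: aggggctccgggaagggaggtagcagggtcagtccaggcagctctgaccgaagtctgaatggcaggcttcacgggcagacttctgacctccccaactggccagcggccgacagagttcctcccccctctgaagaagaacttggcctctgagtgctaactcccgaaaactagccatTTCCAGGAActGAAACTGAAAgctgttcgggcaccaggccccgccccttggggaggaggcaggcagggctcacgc
Tgtp2, chr11:49064213-49064462, minus strand: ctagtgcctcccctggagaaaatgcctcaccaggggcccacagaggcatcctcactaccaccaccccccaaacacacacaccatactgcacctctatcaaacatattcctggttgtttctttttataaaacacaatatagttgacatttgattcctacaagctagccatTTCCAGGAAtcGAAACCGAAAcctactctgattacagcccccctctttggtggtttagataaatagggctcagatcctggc
Gbp7, chr3:142530086-142530335, plus strand: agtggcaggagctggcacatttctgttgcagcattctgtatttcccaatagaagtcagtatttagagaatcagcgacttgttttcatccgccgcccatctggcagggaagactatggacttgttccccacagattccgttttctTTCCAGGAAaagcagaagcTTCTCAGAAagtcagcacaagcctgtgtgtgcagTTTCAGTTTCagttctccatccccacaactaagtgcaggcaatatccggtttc
In Igtp, Irgm2 and Tgtp2 the GAS match stood just upstream of the ISRE match, and Gbp7 had 2 GAS matches. A match describes the letters and is no evidence of binding. The promoters of Iigp1 and Gbp4 were not used here. In the annotation of the same build (GENCODE vM21), Igtp and Irgm2 overlap on the same strand over 7974 bases, Gbp4 overlaps Gbp8 and Gbp9, and Tgtp1 and Tgtp2 are near-identical copies. Reads of these pairs can be split or dropped by the counting, so their separate values are uncertain.

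Iigp1 in control B cells came almost entirely from hashtag C0305. The control library held 81 Iigp1 UMIs in B cells, at 3.02 CPM (95% exact Poisson interval 2.40 to 3.75). Hashtag C0305 held 76 of them, or 93.8% (exact Clopper-Pearson interval 86.2 to 98.0%), although it held 16.9% of the B cells and 18.2% of their UMIs. C0302 held 4 UMIs, all in 1 cell, C0306 held 1, and C0301, C0303 and C0304 held 0. In C0305 the level was 15.5 CPM (12.2 to 19.5), while the next hashtag, C0302, was at 0.781 CPM.

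The Ang II library held 1 Iigp1 UMI in its 10774 B cells, in C0301, at 0.0289 CPM (0.000732 to 0.161). The log2 ratio of Ang II to control was -6.71 (exact conditional interval -12.03 to -4.19). Without control hashtag C0305, 5 UMIs at 0.228 CPM stood against the same 1 UMI, and the ratio was -2.98 with an interval of -8.54 to 0.18. Against these 5 hashtags the Ang II difference was thus not detectable at this depth. Against C0301, C0302 and C0303 alone, the control hashtags low in Xist as the Ang II library is, the ratio was -3.37 (-8.99 to -0.03). It rested there on 1 UMI against 4, and the 4 came from 1 cell, which the counting interval does not take into account.

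B6.SLE123 B cells held 60 Iigp1 UMIs, at 2.01 CPM (1.53 to 2.58), and here too 1 hashtag stood apart. C0303 held 39 of the 60, at 7.55 CPM (5.37 to 10.3), with 14.1% of the library's B cells. The other 5 hashtags held 2 to 6 UMIs each, at 0.446 to 1.18 CPM, so all 6 had some. The log2 ratio of B6.SLE123 to control was -0.59 (-1.10 to -0.09), and it turned to 3.14 (1.83 to 4.81) without control C0305. With C0303 also left out of the B6.SLE123 library, an alternative chosen after the data were seen, it was 1.90 (0.45 to 3.66). Against the 3 control hashtags with high Xist, C0305 among them, the ratio was -1.52 (-2.03 to -1.01), and against C0304 and C0306 alone it was 4.10 (1.56 to 9.43), with 60 UMIs against 1. Both contrasts share the control library, and so share C0305.

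Among single cells, 51 of 2125 C0305 B cells had an Iigp1 UMI, or 2.4% (1.79 to 3.14%), and 42 of the 51 had exactly 1. The highest count in a cell was 9. Of the 188 neutrophils with the same hashtag, 0 had one, which allows a share of up to 1.6%, with a median of 1253 UMIs per cell against 1916 in the B cells. Thinned to 1000 UMIs per cell, 27 of 2024 C0305 B cells (1.33%) kept an Iigp1 UMI, and 101 shallower cells were left out. In B6.SLE123 hashtag C0303, 31 of 1694 B cells had an Iigp1 UMI, at most 3 in a cell. B cells of control C0301, C0303 and C0304, from the same droplet run, held 0 Iigp1 UMIs.

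All 9 genes were at their highest in C0305 among the 6 control hashtags, though for Gbp3, Irgm1 and Irgm2 the next hashtag lay within its counting interval. Of 11384 genes with at least 20 UMIs in control B cells, 18.4% were highest there. Iigp1 reached 20 UMIs through C0305 alone and was used to choose the genes, so its place among the 9 is only a description. For 4 of the 9, C0305 was at least 1.5 times the next hashtag, against 1.05% of genes: Iigp1, Gbp7, Gbp2 and Tgtp2. Summed over the 9 genes, C0305 was at 275.6 CPM (261.1 to 290.7), and the other 5 lay between 141.7 and 177.1 CPM.

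**Figure D1:**
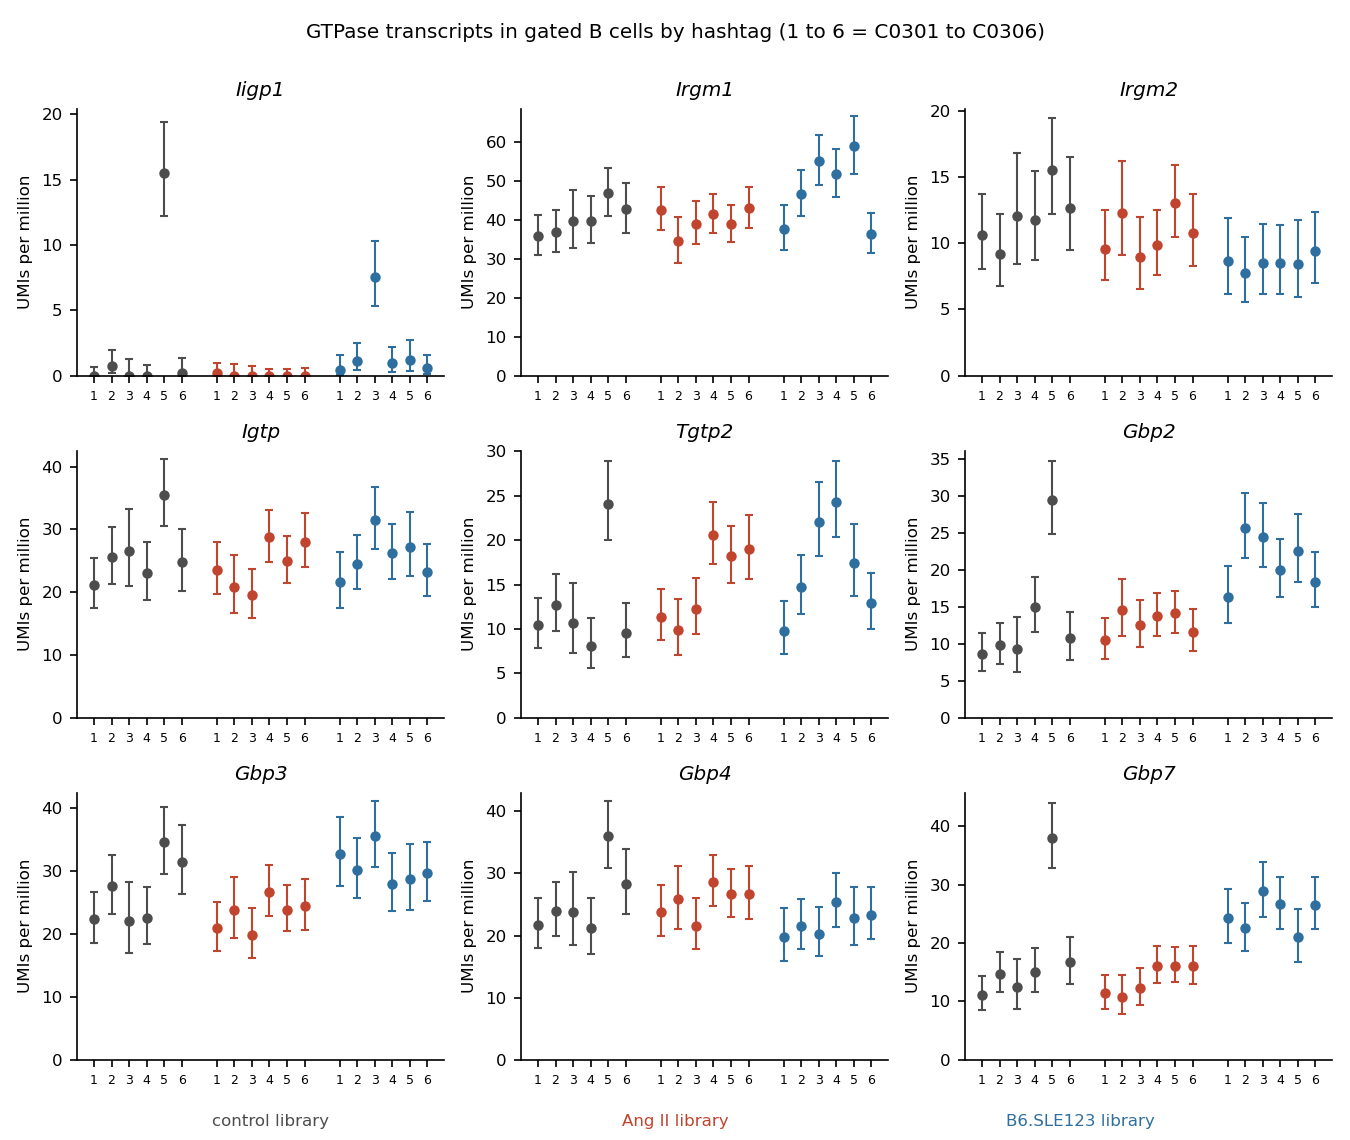
Level of each GTPase gene in gated B cells (CPM, 95% exact Poisson intervals) for hashtags C0301 to C0306, numbered 1 to 6, in the 3 libraries (control grey, Ang II red, B6.SLE123 blue). Control hashtag C0305 is the highest of its library in every panel, at 15.5 CPM for Iigp1 and 38.0 CPM for Gbp7, and for Iigp1 the B6.SLE123 hashtag C0303, at 7.55 CPM, also stands above the others of its library.

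Among the GBPs, which oligomerise on membranes and promote lysis of pathogen vacuoles, Gbp7 was far higher in C0305 than in the rest. Its control hashtags had a lowest level of 11.2, a median of 14.8 and a highest of 38.0 CPM, and the highest, C0305 (32.8 to 43.9), was 2.28 times the next. The Ang II hashtags lay between 10.8 and 16.1 CPM with a median of 14.1, and the B6.SLE123 hashtags between 20.9 and 28.9 CPM with a median of 25.4. Control C0305 was above every B6.SLE123 hashtag, but its interval overlapped that of B6.SLE123 C0303 (24.4 to 33.9 CPM). How many of all genes separate these libraries by hashtag was not counted, and the libraries also differ in strain and Xist. No separation of libraries is therefore read from the ranges of single genes.

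Gbp2 had a lowest control level of 8.55, a median of 10.2 and a highest of 29.4 CPM, again in C0305 (24.8 to 34.7). In the Ang II library it lay between 10.5 and 14.5 CPM, with a median of 13.1. In the B6.SLE123 library it lay between 16.3 and 25.7 CPM, with a median of 21.3. Control C0305 exceeded every hashtag of both these libraries, but its interval overlapped those of B6.SLE123 C0302 (21.6 to 30.4 CPM), C0303 (20.3 to 29.1 CPM) and C0305 (18.3 to 27.6 CPM).

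For Gbp3 and Gbp4 the next hashtag was nearer. Gbp3 was at 34.6 CPM in C0305 and at 22.1 to 31.5 CPM in the other control hashtags, against 19.9 to 26.7 CPM in the Ang II library and 27.9 to 35.6 CPM in the B6.SLE123 library. Gbp4 was at 36.0 CPM in C0305 and at 21.2 to 28.4 CPM in the other 5, against 21.6 to 28.6 and 19.8 to 25.5 CPM in the Ang II and B6.SLE123 libraries. For Gbp3 the next control hashtag lay within the counting interval of C0305 (29.5 to 40.2 CPM).

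Tgtp2, the other effector IRG of the group, had a lowest control level of 8.06, a median of 10.6 and a highest of 24.1 CPM, in C0305 (19.97 to 28.9). In the Ang II library C0301, C0302 and C0303 were at 11.4, 9.84 and 12.3 CPM and C0304, C0305 and C0306 at 20.6, 18.2 and 19.0 CPM. In the B6.SLE123 library it ranged from 9.81 to 24.3 CPM, with C0304 and C0303 highest. Tgtp2 thus varied by more than 1.5 times among hashtags in every library, not in the control library alone.

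The regulatory IRGs were also highest in C0305, each less than 1.5 times the next hashtag. Igtp was at 35.6 CPM there and at 21.2 to 26.6 CPM in the other control hashtags. Irgm2 was at 15.5 against 9.18 to 12.6 CPM, and Irgm1 at 46.8 against 35.7 to 42.7 CPM. For both, the next control hashtag, C0306, lay within the counting interval of C0305 (12.2 to 19.5 CPM for Irgm2 and 40.95 to 53.3 CPM for Irgm1). In the other libraries Igtp lay between 19.5 and 31.6 CPM and Irgm2 between 7.74 and a highest of 13 CPM. Irgm1 was highest in B6.SLE123 hashtag C0305, at 58.8 CPM, and lowest in Ang II hashtag C0302, at 34.4 CPM.

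Compared as whole libraries, the 8 genes other than Iigp1 were close in Ang II and control B cells. Their sum was 167.6 CPM in the Ang II library and 176.3 CPM in the control library, a log2 ratio of -0.07 (-0.13 to -0.02). The ratios of single genes ran from -0.38 (-0.56 to -0.19) for Gbp7 to 0.30 (0.10 to 0.50) for Tgtp2. Of the 9 genes, 1 was at least 2-fold lower, namely Iigp1, which chose the group and from which nothing is read here, where 1.19% of 12470 genes were, and 0 were at least 2-fold higher, where 2.0% were. The median log2 ratio was -0.13 over the 9 genes and 0.06 over all genes with 20 UMIs.

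Without control hashtag C0305 the direction turned. The sum of the 8 genes in control B cells was then 157.6 CPM, and the log2 ratio of Ang II to control 0.09 (0.03 to 0.15). Gbp7 moved from -0.38 to 0.02 (-0.19 to 0.23), Gbp2 from -0.13 to 0.27 (0.04 to 0.51) and Tgtp2 from 0.30 to 0.61 (0.39 to 0.84). No gene of the 8 was then 2-fold apart. Against control hashtags C0301, C0302 and C0303, low in Xist, the 8 genes were at 0.14 (0.07 to 0.21) in the Ang II library.

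In B6.SLE123 B cells the sum of the 8 genes was 198.3 CPM, a log2 ratio to control of 0.17 (0.11 to 0.22). Gbp2 was at 0.60 (0.41 to 0.79), Gbp7 at 0.45 (0.29 to 0.62) and Tgtp2 at 0.40 (0.20 to 0.60), while Irgm2 was at -0.48 (-0.72 to -0.23) and Gbp4 at -0.22 (-0.38 to -0.06). Of the 9 genes 0 were at least 2-fold higher, where 6.89% of 12440 genes were, and 0 at least 2-fold lower, where 2.77% were. Without control C0305 the sum was at 0.33 (0.27 to 0.39), Iigp1 at 3.14 and Gbp2 at 1.002 (0.78 to 1.23), just past 2-fold. The share of all genes past 2-fold was not computed for this setting, so nothing is read from a count. Gbp7 was then at 0.85 (0.65 to 1.04), and Irgm2 stayed below control at -0.37 (-0.63 to -0.11).

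The sum also depended on which control hashtags it was set against. Against the 3 with high Xist it was at -0.02 (-0.08 to 0.05), and against control cells with an Xist UMI at -0.08, where Iigp1 was at -1.02. With C0305 also left out, it was at 0.25 (0.17 to 0.34) against C0304 and C0306. Irgm2 was lower and Tgtp2 higher in the B6.SLE123 library under both choices of hashtags, at -0.65 (-0.93 to -0.36) and 0.24 (0.001 to 0.49) with C0305 and at -0.51 and 0.95 without it.

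**Figure D2:**
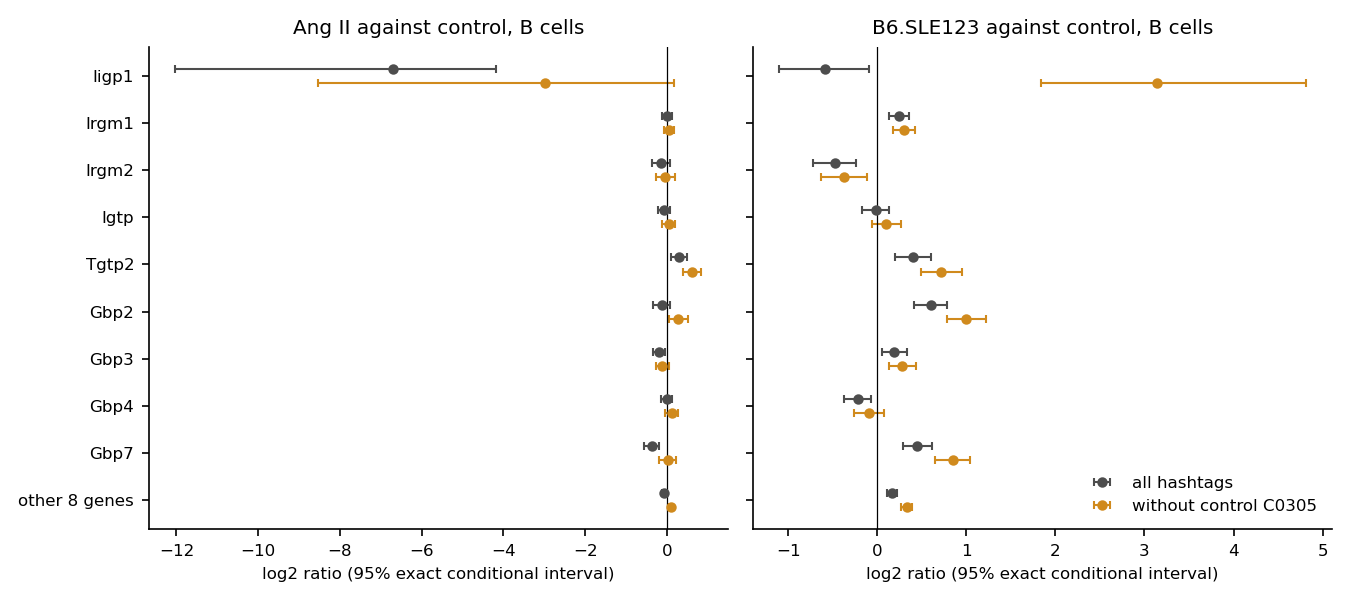
Log2 ratios of each GTPase gene, and of the 8 genes other than Iigp1 summed, in gated B cells of the Ang II (left) and B6.SLE123 (right) libraries against control, with exact conditional 95% intervals, over all hashtags (grey) and without control hashtag C0305 (orange). The 2 panels have different log2 axes and share the control library; Iigp1 moves from -6.71 to -2.98 on the left and from -0.59 to 3.14 on the right.

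The same hashtag stood out in control myeloid cells. These were monocytes, dendritic cells and C1q-expressing cells, 580 in the control, 346 in the Ang II and 919 in the B6.SLE123 library. Control myeloid cells held 24 Iigp1 UMIs and all 24 were in C0305, at 34.2 CPM, where 186 of the 580 cells were. With a floor of 3 UMIs in place of the 0 in the other 5 hashtags together, C0305 was 16.4-fold higher. This is a point value that leaves out counting error. Ang II myeloid cells held 5 Iigp1 UMIs in 4 hashtags, and B6.SLE123 myeloid cells held 24 in all 6, with C0304 highest at 34.0 CPM.

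The other 8 genes were also highest in C0305 of the control myeloid cells, at 500.8 CPM in sum against 121.8 to 287.8 CPM. Gbp2 was at 142.3 CPM there and at 9.37 to 71.9 CPM in the other 5. Over all hashtags the log2 ratio of Ang II to control for the 8 genes was -0.52 (-0.71 to -0.32), and without C0305 it was 0.17 (-0.07 to 0.41). Of 9 genes with at least 20 UMIs, 2 were at least 2-fold lower in the Ang II library, Iigp1 and Gbp2, against 1.19% of 9250 genes. Iigp1 had 20 UMIs there only through control C0305, with 24 of its 29, so the count is a description. Without C0305, 0 of 7 were, and Gbp2 moved from -1.80 to -0.67 (-1.35 to 0.01). In B6.SLE123 myeloid cells 1 of 9, Gbp2 at -1.04, was at least 2-fold lower, where 1.97% of 9685 genes were, and without C0305 Gbp2 was at 0.09 (-0.45 to 0.65) and the 8 genes at 0.37 (0.15 to 0.58).

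Classical monocytes, marked by Ly6c2 and Ccr2, made up 80 of the C0305 myeloid cells. In this class alone the 8 genes were at -0.57 in the Ang II library relative to control, and at 0.07 (-0.28 to 0.41) without C0305. Of 7 genes with 20 UMIs, 2 were at least 2-fold lower, Tgtp2 and Gbp2, where 2.35% of genes were, and without C0305, when Tgtp2 fell under 20 UMIs, 0 of 6 were. Nonclassical monocytes, marked by Ace and Treml4, were at -0.56 and at 0.12. Myeloid cells made up 6.57% of the C0305 cells and 1.71 to 3.77% of the cells with the other control hashtags, and neutrophils 6.64% against 1.72 to 4.89%. Whether this composition has a part in the B cell values was not tested.

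Neutrophils held almost no Iigp1, with 0 UMIs in the control and B6.SLE123 libraries and 1 in the Ang II library. The other 8 genes summed to 318.4 CPM in C0305 neutrophils, to 248.7 and 253.7 CPM in control C0304 and C0306, and to 55.9 to 103.2 CPM in the other 3. Their log2 ratio of Ang II (86.33 CPM) to control was -1.002, and -0.23 without C0305. Control C0304, C0305 and C0306 were the hashtags with high Xist in B cells, and Ang II B cells held no Xist. The neutrophil ratios are therefore not matched for Xist. Of 5 genes with 20 UMIs, 2 were at least 2-fold lower, where 2.74% of genes were. Without C0305, Gbp2 moved from -1.29 to 0.40 (-0.57 to 1.49), whereas Igtp stayed lower, moving from -1.81 to -1.17 (-1.996 to -0.33).

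NK cells, which carry interferon gamma transcript, differed less. The 8 genes summed to 357.5 CPM in C0305 and to 178.8 to 311.8 CPM in the other control hashtags, and the intervals of C0305 and the next hashtag, C0304, overlapped. The whole-library log2 ratio was 0.32 in the Ang II and 0.14 in the B6.SLE123 library. Iigp1 held 1, 0 and 3 UMIs in the control, Ang II and B6.SLE123 NK cells. Of 8 genes with 20 UMIs, 0 were at least 2-fold lower in Ang II NK cells, where 0.985% of genes were, and 0 at least 2-fold higher, where 3.12% were.

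**Figure D3:**
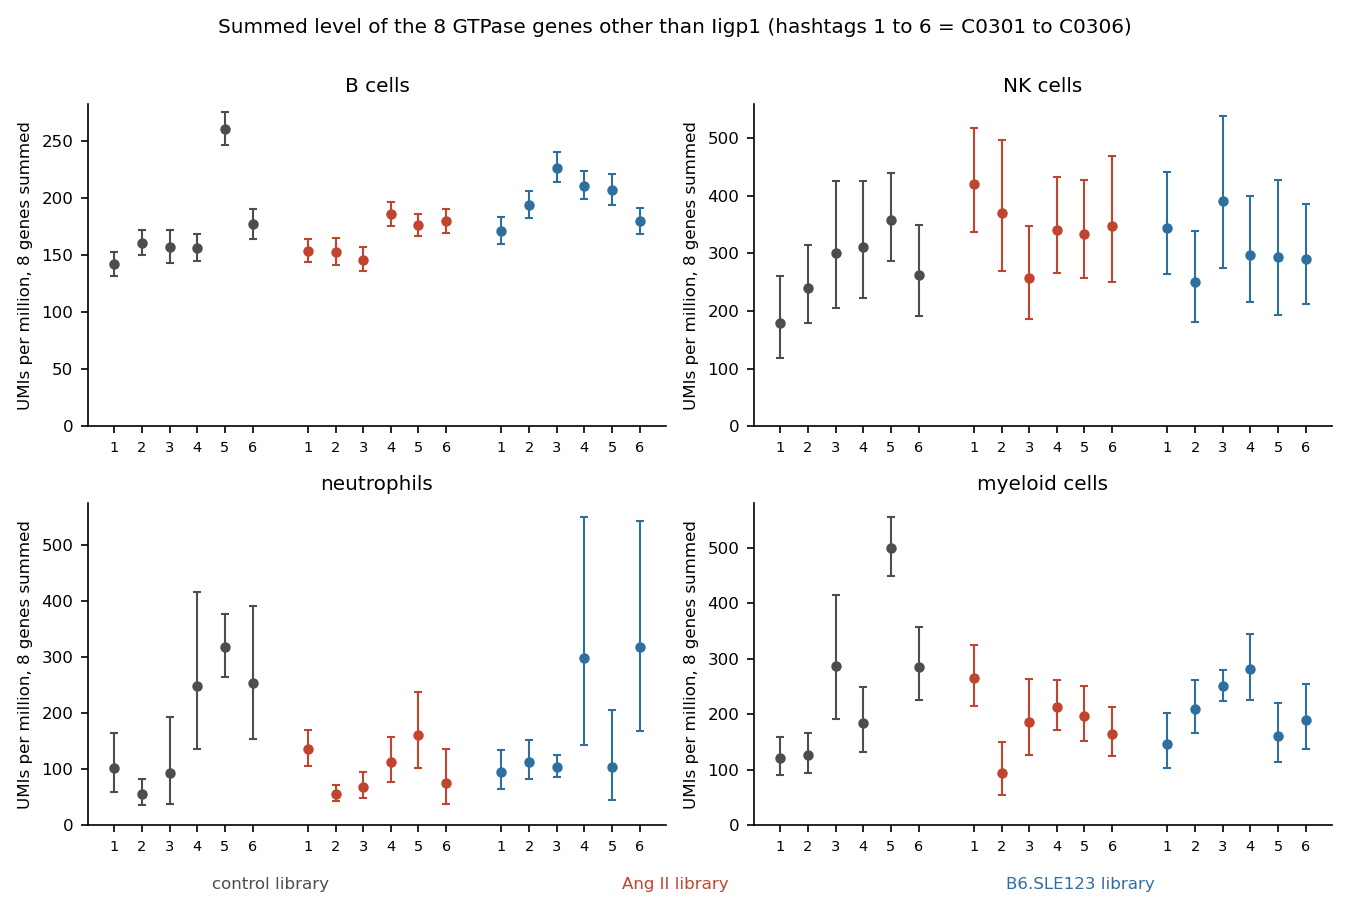
Summed level of the 8 GTPase genes other than Iigp1 (CPM, 95% exact Poisson intervals) by hashtag C0301 to C0306, numbered 1 to 6, in B cells, NK cells, neutrophils and myeloid cells of the 3 libraries. Control hashtag C0305 is the highest control hashtag in all 4 classes, at 260.1, 357.5, 318.4 and 500.8 CPM, with intervals that overlap others in NK cells and neutrophils.

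Over whole libraries, the 9 genes together were higher in C1q-expressing myeloid cells, classical monocytes and NK cells than in B cells of the same library. In the control library the sum was 695.4 CPM in C1q-expressing myeloid cells (440.8 to 1043, 28 cells), 419 in classical monocytes, 279.4 in NK cells, 248.9 in nonclassical monocytes, 179.3 in B cells and 172.9 in neutrophils. It was 116.7 CPM in conventional dendritic cells, 111.9 in plasmacytoid dendritic cells and 82.6 in plasma cells. NK cells and nonclassical monocytes, B cells and neutrophils, and both kinds of dendritic cell had overlapping intervals. Control hashtag C0305 held 80 of the 185 control classical monocytes and 12 of the 28 control C1q-expressing cells. B6.SLE123 hashtag C0303 held 148 of the 218 C1q-expressing cells of its library. In the Ang II library C1q-expressing cells were at 448.2, classical monocytes at 275.2 and NK cells at 346.5 CPM, and in the B6.SLE123 library at 323, 284.9 and 309.9 CPM. The order of the other classes was not the same in each library. Nonclassical monocytes were at 162.3 CPM in the Ang II and 185 CPM in the B6.SLE123 library, beside 167.6 and 200.3 CPM in B cells, and plasmacytoid dendritic cells at 203.5 and 227.4 CPM. Tgtp2 was nearly undetected in neutrophils, with 1 UMI in the control, 3 in the Ang II and 2 in the B6.SLE123 library, while NK cells held 19, 30 and 31.

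T cells were few after depletion, 11 in the control and 6 in the B6.SLE123 library, but 273 in the Ang II library, of which 264 carried hashtag C0303. Those 273 cells held 15 Iigp1 UMIs, at 12.55 CPM (7.03 to 20.7), all in C0303, and 369.1 CPM of the 9 genes. The same droplet run gave 1 Iigp1 UMI in 10774 B cells.

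**Figure D4:**
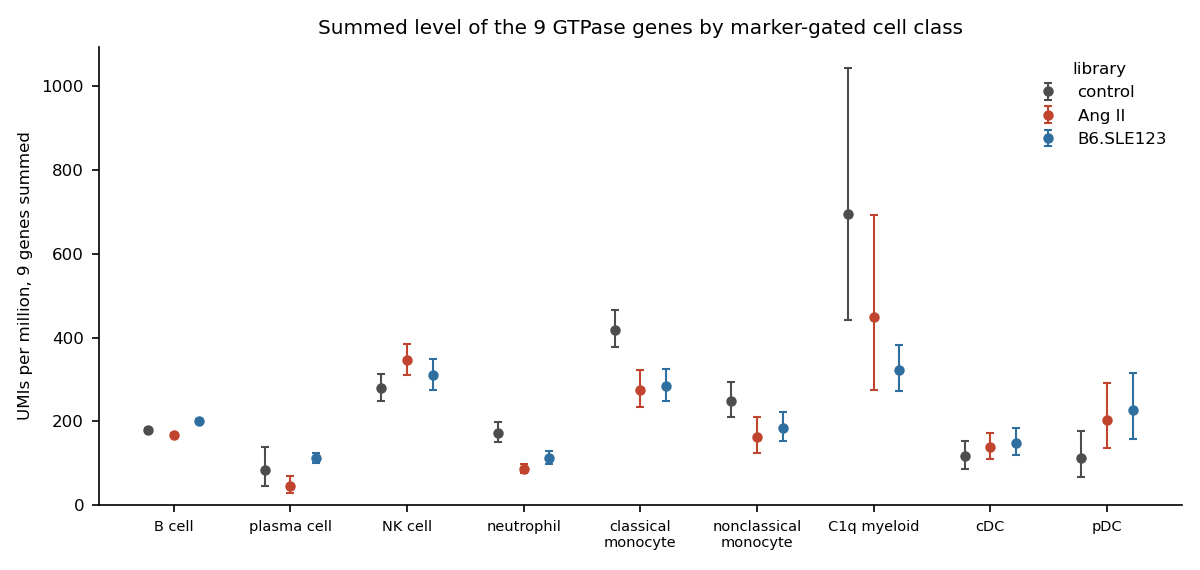
Summed level of the 9 GTPase genes (CPM, 95% exact Poisson intervals) in each marker-gated class of each library. In the control library C1q-expressing myeloid cells (695.4 CPM) and classical monocytes (419 CPM) lie above B cells (179.3 CPM). The C1q value rests on 28 cells, 12 of them in hashtag C0305.

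Other genes of both GTPase families were taken from fixed lists. The 5 other GBP genes with 20 UMIs in control B cells were highest in C0305, where 18.4% of genes were, though Gbp10 reached 20 UMIs only through C0305, with 18 of its 28. Gbp6 was at 11.9 CPM against 2.05 to 4.05 in the other 5 hashtags, Gbp8 at 7.57 against at most 2.76 and Gbp10 at 3.68 against at most 0.715 CPM. Gbp5 (28.2 against at most 24.6 CPM) and Gbp9 (45.4 against at most 45.2 CPM) were close to the next hashtag.

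Of 5 other IRG genes with 20 UMIs, 1 was highest in C0305, close to the 18.4% of all genes. Tgtp1, the near-identical copy of Tgtp2, was at 5.93 CPM in C0305 and at most 2.23 CPM elsewhere in control B cells. Gm4841, Gm4951 and F830016B08Rik, further IRG genes with fewer UMIs, held 7, 6 and 4 UMIs in control B cells, all in C0305. In contrast 9930111J21Rik1, 9930111J21Rik2, Irgc1 and Gm5431 were not highest there, with log2 ratios of 0.00, -0.08, -0.23 and -0.44 to the median of the other hashtags. In the Ang II library Gm4841 and Gm4951 were at 0 in B cells and F830016B08Rik had 1 UMI.

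Several targets of interferon gamma outside the GTPases were also higher in C0305. Of 10 with 20 UMIs, 6 were highest in C0305, where 18.4% of all genes were. Each of the 10 was above the median of the other control hashtags, where 50.2% of all genes were, and their median log2 ratio to it was 0.32, against 0.0012 over all genes. Serpina3g, a serine protease inhibitor, was at 83.2 CPM against at most 37.9. Nlrc5, the transactivator of MHC class I genes, was at 44.2 against at most 29.7, Psmb9, an immunoproteasome subunit, at 369 against at most 283.8, and Tap1, a peptide transporter, at 173 against at most 140.1 CPM. Psmb9 and Tap1 overlap on opposite strands. Ciita and Cd274, the MHC class II transactivator and PD-L1, were at 0.10 and 0.01 on the log2 scale.

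Of 6 genes of the ligand, receptor and signal with 20 UMIs, 2 were highest in C0305, against 18.4% of all genes. Irf1 was at 93.8 against at most 86.1 and Socs1, the feedback inhibitor, at 20.7 against at most 18.4 CPM. The receptor chain Ifngr1 and the kinase Jak2 were lower in C0305 than in the median of the others, by log2 ratios of -0.29 and -0.54. Ifng itself was counted in NK cells, with 60 UMIs in the control, 67 in the Ang II and 28 in the B6.SLE123 library. In C0305 NK cells it had 8 UMIs, at 32.1 CPM (13.9 to 63.3), and in C0304, the highest of the 6 control hashtags, 13 UMIs at 101.3 CPM (53.96 to 173.3). These intervals overlap, so no order of the hashtags is read from Ifng.

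Genes of the type I interferon response, driven by other ligands, shared C0305 in part. In control B cells 5 of 13 were highest in C0305, where 18.4% of genes were, and 6 in C0306, where 15.4% were. In C0305 11 were above the median of the other hashtags, where 50.2% of genes were, with a median log2 ratio of 0.41. Isg15 was at 59.7 CPM in C0305 and 56.96 in the next hashtag. In the Ang II library all 13 were highest in C0301, where 12.7% of genes were, while 0 of the 8 GTPase genes with 20 UMIs were highest there. Ifit3 was at 20.4 CPM in Ang II C0301 against at most 12.95 elsewhere, and the 9 GTPase genes summed to 153.8 CPM there, within the 145.9 to 185.7 CPM of that library. Of the 9 genes of ATG8 conjugation 0 were highest in control C0305, with a median log2 ratio of -0.13 to the other hashtags.

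**Figure D5:**
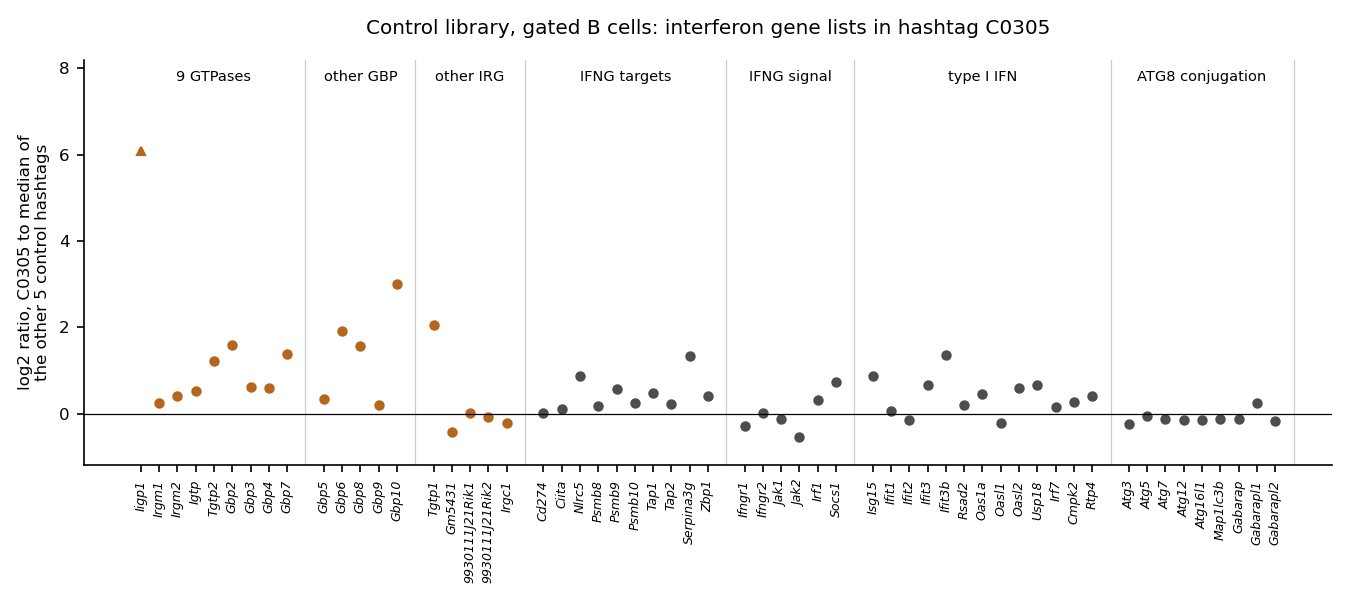
Log2 ratio of the level in control hashtag C0305 to the median of the other 5 control hashtags in gated B cells, for genes with at least 20 UMIs, by list; Iigp1 (triangle) is set against the pooled level of the other 5, since their median is 0. The 9 GTPases and the 10 interferon gamma targets lie above 0, at medians of 0.61 and 0.32, as do 11 of 13 type I genes (median 0.41); of the 5 other IRG genes 2 do (median -0.08), and the ATG8 conjugation genes have a median of -0.13.

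In B6.SLE123 B cells hashtag C0303 took the leading place for several of these genes. Of the 9 GTPases 4 were highest there, where 16.7% of 11622 genes were, and 1 of them, Iigp1, was at least 1.5 times the next, where 1.48% were. Of 12 interferon gamma targets 9 were highest in C0303, with Serpina3g at 125.7 against at most 62.3 CPM, and Gbp6 was at 14.9 against at most 7.93 CPM. Socs1 was at 24.7 to 59.1 CPM in the B6.SLE123 hashtags and at 7.25 to 20.7 CPM in the control hashtags. Over whole libraries it was at 41.5 CPM in B6.SLE123 and 14.2 CPM in control B cells, a log2 ratio of 1.55 (1.38 to 1.72). Of 6 signal genes with 20 UMIs it was the 1 that was at least 2-fold higher in B6.SLE123 B cells, where 6.89% of all genes were, and at -0.42 it was lower in Ang II B cells. Of 12 interferon gamma targets, 2 were at least 2-fold higher in B6.SLE123 B cells, Cxcl10 at 5.02 (3.63 to 6.92) and Ido1 at 4.49 (1.88 to 9.85). Cxcl10 had 145 UMIs against 4 and Ido1 25 against 1. Both reached 20 UMIs only through B6.SLE123, so this count is a description. Of 14 type I genes, 1 was, Ifi44 at 1.81 (0.83 to 2.91). In C0303, 56.9% of cells were B cells and 13.9% myeloid, against 73.7 to 82.3% and 2.31 to 5.16% with the other B6.SLE123 hashtags. In its B cells classical monocyte markers summed to 272.9 CPM against 145.5 to 187 in the other 5 hashtags, and conventional dendritic cell markers to 58.87 against 35 to 41.8 CPM. The part of these in the values was not tested.

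Iigp1-bearing B cells carried more of the other GTPases. In C0305, 33 of 51 cells with Iigp1 (64.7%, 50.1 to 77.6%) had a UMI of another of the 9 genes, against 768 of 2074 without (37.0%, 34.9 to 39.1%). Their median depths were 1999 and 1910.5 UMIs. Thinned to 1000 UMIs, the shares were 11 of 27 (40.7%) and 394 of 1997 (19.7%). The other 8 genes were at 1007 CPM in the 51 cells and at 241.7 CPM in the rest, and Gbp2 at 204.9 and 25.1 CPM. In B6.SLE123 C0303, 22 of 31 cells with Iigp1 and 678 of 1663 without had another of the 9. There the cells with Iigp1 were deeper, with medians of 3332 and 2582 UMIs. Thinned, the shares were 6 of 11 (54.5%, 23.4 to 83.3%) and 287 of 1631 (17.6%, 15.8 to 19.5%).

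Without its 51 Iigp1-bearing cells, C0305 still stood above the other control hashtags, since its remaining 2074 B cells were at 241.7 CPM for the 8 genes and the next hashtag at 176.8. Markers of B cells were at 8307 CPM in the 51 cells and 8794 in the rest. Markers of C1q myeloid cells, NK cells and plasmacytoid dendritic cells were at 0 in the 51 cells, which allows up to 31.5 CPM for each list (exact interval). That limit is above the 4.19, 9.01 and 24.9 CPM of the 3 lists in the rest, so a difference could not be seen. Neutrophil markers were at 42.7 CPM against 48.8, and conventional dendritic cell markers at 102.4 (52.9 to 179) against 63.1 CPM. In B6.SLE123 C0303 the dendritic cell markers were at 110 (58.6 to 188.1) against 57.7 CPM. Classical monocyte markers were at 563.5 against 188.9 CPM, in 2 of the 7 markers. Ly6c2 was at 315.9 (222.4 to 435.4) against 28.1 CPM and Ms4a4c at 247.6 against 157.9 CPM, while Ccr2, F13a1, Fn1, Chil3 and Vcan were at 0 in the 51 cells. In B6.SLE123 C0303 Ly6c2 had 1 UMI in the 31 cells with Iigp1 (8.46 CPM, 0.214 to 47.1) and 36.9 CPM in the rest. The part of these markers in the result was not tested. Ly6c2 was singled out after its values were seen. Over all C0305 B cells the classical monocyte list was at 197.9 CPM and the C1q list at 4.09 CPM, against 158 to 199 and 1.84 to 7.15 CPM in the other control hashtags. The conventional dendritic cell list was at 63.99 CPM in C0305, above the 49.46 to 56 CPM of the other 5, and its part in the result was not tested.

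Finally, genes with the most similar pattern over the 18 hashtag populations of B cells were sought, after subtracting each library's mean. Among 10212 genes, those nearest to the sum of the 9 GTPases were AW112010 (Pearson r = 0.947), H2-T23 (0.926), Gas5 (0.918), H2-Q6 (0.899) and H2-Q4 (0.892), and those nearest to Iigp1 were Pkib (0.912), H2-Q7 (0.907), H2-K1 (0.907), Gbp6 (0.899) and H2-Q6 (0.883). These are descriptions over 18 points that share 3 droplet runs, with C0305 among them. AW112010 was at 215.1 CPM in C0305 and at 103.4 to 126.9 CPM in the other control hashtags. H2-K1, a classical MHC class I heavy chain, was at 2857 against 1592 to 2030 CPM, and Pkib, a protein kinase A inhibitor, at 120 against 80.5 to 87.0 CPM.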

How the data were processed

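Single-cell RNA was measured in 3 spleen libraries, 1 per group, so no test between groups and no p-value is given. The authors made UMI counts on mm10 (per the submitters' processing notes) using Cell Ranger 6.0.0, as the headers state, and the deposited matrices hold raw counts of genes and hashtags per barcode. Barcodes with more than 200 and fewer than 3500 genes, under 15% mitochondrial UMIs and exactly 1 hashtag above an Otsu threshold were kept, which removes doublets of different hashtags only. A cell was placed in a class with at least 3 different markers of its list (4 for plasma cells), and cells of several families were left out. Counts were summed per class, library and hashtag, and divided by all UMIs of the same cells. Intervals are 95% exact Poisson (levels), conditional (ratios) or Clopper-Pearson (shares). No ratio between libraries was computed for a gene with a count of 0 in either library. A floor of 3 UMIs replaced a count of 0 in the myeloid Iigp1 fold between control hashtags. The same floor was used in counting genes past 2-fold with each hashtag left out. Library comparisons used genes with at least 20 UMIs over both libraries, and called a gene at 2-fold. Shares of all genes past 2-fold were computed with all hashtags only, so counts with hashtags left out are descriptions.

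The text names the 9 genes, members of lists of related GTPases, interferon signal, targets, type I response and ATG8 conjugation, and the genes most like the 9 (at least 200 UMIs). The genes and lists were chosen with earlier results of these data known. Gm12250, Gbp11 and Mx1 were not analysed here. An item of the signal list is not reported here. Alternatives were other cell limits, no doublet removal, Leiden classes, TMM scaling (edgeR 4.0.16), DESeq2 1.42.0 size factors, other count limits, control cells or hashtags with or without Xist, and each hashtag left out. Python 3.11.15, scipy 1.17.1, scanpy 1.11.5, scikit-image 0.26.0 and R 4.3.3 were used.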

Additional observations from a re-analysis of the deposited data

Results flagged for a closer look

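Each of the 9 genes was examined for a hashtag that stood far from the other 5 in B cells of each library, by Dixon's ratio of the gap to the range with its 95% critical value. Of 27 sets of gene and library, 6 exceeded it. Iigp1, which chose the group, was flagged in every library, and the other flags were all in control C0305. The rate of about 1 in 20 by chance holds for independent, unselected sets, so the count is not compared with it. In the control library hashtag C0305 stood apart for Iigp1 (15.54 CPM against 0.781 in the next), Tgtp2 (24.12 against 12.69), Gbp2 (29.44 against 14.97) and Gbp7 (38.03 against 16.68). In the B6.SLE123 library C0303 stood apart for Iigp1, at 7.552 CPM against 1.176. In the Ang II library C0301 stood apart for Iigp1 at 0.1774 CPM, which is 1 UMI against 0 in the other hashtags and so rests on a single molecule. The labels do not say which mice or which treatment C0305 or C0303 marks. For B6.SLE123 C0303, treatment and individual mice therefore cannot be told apart. Xist was at 556.7 CPM in B cells of control C0305 and at 540 and 523.1 CPM in C0304 and C0306, which held 0 and 1 Iigp1 UMIs. Ddx3y, a Y chromosome transcript, was at 0 CPM in C0305 and at 0.4605 and 0.7149 CPM in C0304 and C0306. In control C0301, C0302 and C0303 it was at 45.55 to 55.29 CPM. The control library joined male sham and female mice, so the Iigp1 excess of C0305 lay among the hashtags with female transcripts. C0304 and C0306 carried these too, so the labelled sex does not separate C0305 from them. What set C0305 apart from C0304 and C0306 was not tested. Xist was present in all 6 B6.SLE123 hashtags.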

How the results depend on the processing

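The results over whole libraries rested largely on control hashtag C0305. With each hashtag of either library left out in turn, the Iigp1 log2 ratio in B cells ranged from -7.03 to -2.98 for Ang II and from -1.83 to 3.14 for B6.SLE123, the lowest of the latter without B6.SLE123 C0303 and the highest of both without control C0305. Without Ang II C0301 no Iigp1 UMI is left in that library, so no ratio is given for it. The other 8 genes summed ranged from -0.14 to 0.088 for Ang II and from 0.10 to 0.33 for B6.SLE123, lowest without control C0301 and highest without C0305. The count of genes at least 2-fold lower in Ang II ranged from 0 to 1 and of those at least 2-fold higher in B6.SLE123 from 0 to 2. These counts include Iigp1, which chose the group, and no all-gene share was computed for these settings. With both control C0305 and B6.SLE123 C0303 left out, chosen after the data were seen, Iigp1 was at 1.90 and the other 8 genes at 0.29 in B6.SLE123, and 1 gene was at least 2-fold higher. With control cells limited to those with Xist, the other 8 genes were at -0.32 for Ang II, whose own B cells held no Xist, and -0.078 for B6.SLE123. With only the control hashtags closest in Xist (under 10 CPM for Ang II, over 10 CPM for B6.SLE123), chosen after the data were seen, Iigp1 was at -3.37 and the other 8 genes at 0.14 for Ang II, with 0 genes 2-fold lower since Iigp1 had under 20 UMIs, and at -1.52 and -0.016 for B6.SLE123. Without C0305 as well, they were at 4.10 and 0.25 for B6.SLE123, with 1 gene 2-fold higher. DESeq2 size factors gave -0.14 for Ang II. With at least 100 UMIs required, 0 genes were 2-fold lower in Ang II, since Iigp1 was then not counted. With the cell limits read as UMIs, the share of control Iigp1 UMIs in C0305 was 100%. The causes of the other shifts were not tested. No paired analysis was possible because each group is 1 library and hashtag numbers carry no label that pairs them.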
